A study of Solanum lycopersicum with 12 samples.

Results

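The response of the tomato cultivar Moneymaker (Solanum lycopersicum) to 5 h of salt was measured as the difference between 3 arrays of salt-stressed plants and 3 arrays of unstressed plants, 6 of the 12 arrays of the series. The arrays were chosen by their labels alone. Whole plants with 6 leaves stood in a hydroponic culture with quarter-strength Hoagland solution, and received 200 mM NaCl or none (0 mM) for 5 h. The other 6 arrays came from PI365967, a salt-tolerant wild tomato in the submitters' description, treated in the same way with 3 arrays per treatment. Each array took RNA pooled from 3 plants, so replicates were separate pools and p-values measure the spread between pools. Both Moneymaker groups are of 1 cultivar and carry no transgene in the labels, and all 12 samples are labelled Solanum lycopersicum.

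Salt reaches a plant first as an osmotic shock at the root and later as sodium that builds up in the tissue. Plants answer the shock by making abscisic acid (ABA), which closes stomata and switches on protective proteins such as dehydrins, and by changing ethylene and jasmonate production. Growth slows at the same time, because cell walls stop yielding and cells stop dividing. Sodium is pumped out of the cell or into the vacuole by antiporters that run on the proton gradient of H+-ATPases.

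Signals are given as log2 of the deposited intensity plus 16 after quantile normalization of the 12 arrays. A change is the mean of the 3 salt arrays minus the mean of the 3 control arrays on that scale, followed by its standard error (±) from limma. A probe set was called where the Benjamini-Hochberg adjusted p over all probe sets was under 0.05. The array holds 10209 probe sets, of which 108 are controls. Of the 10101 tested, 909 carry a gene symbol in the annotation, so most of the response cannot be named here.

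Organ markers of both roots and leaves were present on all 6 arrays. Mean control signals ran from 12.16 to 13.66 over the 9 photosynthesis probe sets and from 6.74 to 12.80 over the 7 root marker probe sets, and none of either list was at background in either group. Their summed linear signal moved with salt. It ran from 74156 to 85501 in the controls and from 52774 to 57553 under salt for photosynthesis, and from 20845 to 21531 and from 16052 to 16772 for the root markers. In whole plants, fewer cells of a type and less RNA per cell cannot be told apart.

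The response was broad. Of the 10101 probe sets, 5756 were called (57%), 2625 of them higher (26%) and 3131 lower (31%). At least 2-fold changes numbered 826 upward (8.18%) and 714 downward (7.07%). Without scaling the at least 2-fold counts were 616 and 1136 (35.2% higher, against 53.6% here), and with centring on hybridization controls 688 and 982 (41.2%). In 29.1% of all probe sets the 3 salt arrays lay above the 3 controls, and in 34.8% below them. The upper end was longer. At least 8-fold changes were found for 67 probe sets upward and 19 downward, and at least 16-fold changes for 18 and 6. Changes ran from -4.80 to 5.99 with a median of -0.045, a median standard error of 0.114 and a median size of 0.359. Strong probe sets fell more often than weak ones: when all were split into 4 equal groups by mean signal, 40.2% of the strongest group fell and 25.6% rose, and of the weakest group 15.7% fell and 16.9% rose.

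**Figure D1:**
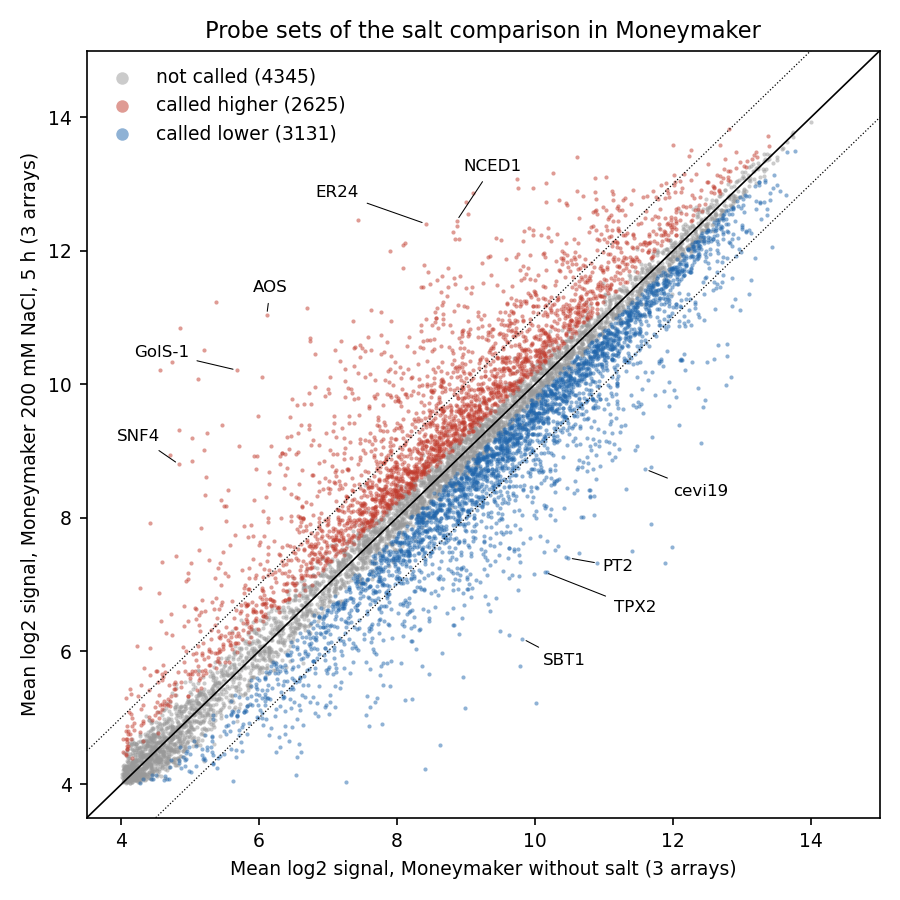
Mean log2 signal of each of the 10101 probe sets in unstressed Moneymaker (horizontal) against salt-stressed Moneymaker (vertical), 3 arrays each. Red points were called higher (2625) and blue points lower (3131), grey points were not called, the solid line is no change and dotted lines mark 2-fold changes. AOS, GolS-1, SNF4, NCED1 and ER24 lie far above the line, and SBT1, PT2, TPX2 and cevi19 far below it.

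The balance of rises and falls rests on the scaling of the arrays. Centring on the 25 hybridization control probe sets, an alternative chosen after the data were seen, gave 1779 higher and 3703 lower calls, so that 32.5% were higher against 45.6% here. Without any scaling there were 1002 higher and 2532 lower calls (28.4% higher). The median change of all probe sets was -0.17 and -0.25 in these fits, so that signals of all genes together sat lower by that much, and the changes below are relative to an array median held level. Over the 465 probe sets of the gene lists below, 158 rose and 151 fell (51.1% higher), against 87 and 130 without scaling (40.1%). Replicate arrays correlated at 0.9909 to 0.9943 in the controls and 0.9932 to 0.9941 under salt, and median intensities of the 6 arrays ran from 332.8 to 633.2.

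**Figure D2:**
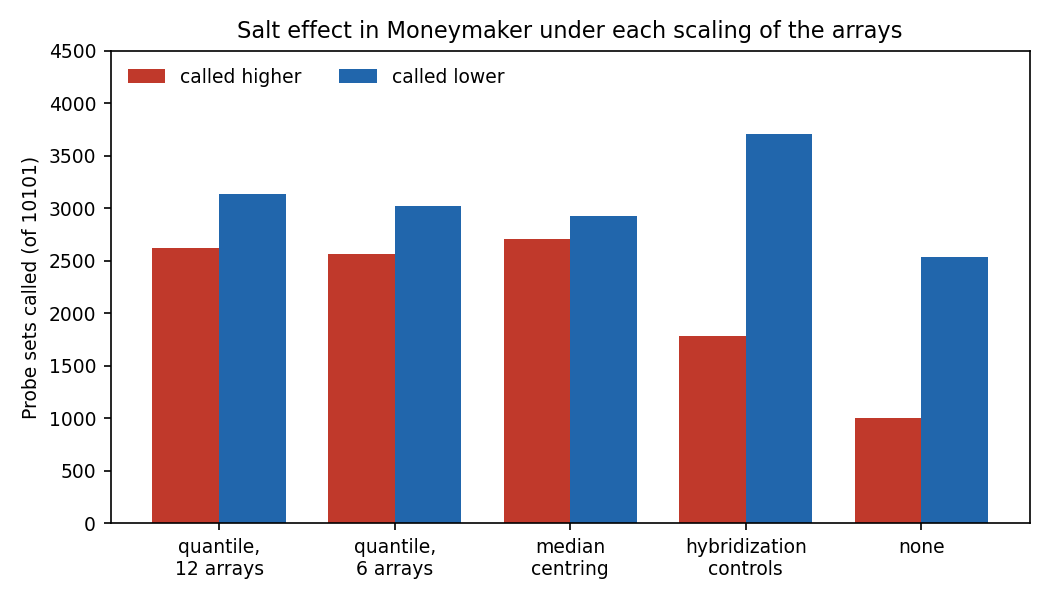
Number of probe sets called higher (red) and lower (blue) under salt in Moneymaker, out of 10101, under 5 scalings of the arrays. Quantile normalization and median centring gave close counts, and scaling on the hybridization controls and no scaling gave fewer rises than falls by a wide margin (1779 against 3703 and 1002 against 2532).

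The steepest rises among named genes were those of AOS, GolS-1 and HSP17.4. AOS encodes allene oxide synthase, which opens the branch of oxylipin synthesis that leads to jasmonate. Its signals were 5.72, 6.34 and 6.27 in the controls and 11.14, 11.01 and 10.95 under salt, a rise of 4.92 ± 0.19 or 30.3-fold (adjusted p = 8.12e-09). GolS-1, for galactinol synthase, which starts the raffinose family of protective sugars, read 5.61, 5.91 and 5.51 without salt and 10.22, 10.04 and 10.37 with it (4.53 ± 0.27, 23.1-fold, adjusted p = 1.09e-07). In both genes the groups lay more than 4 log2 units apart at their nearest arrays. The small heat shock gene HSP17.4 rose by 4.05 ± 0.37 (adjusted p = 2.72e-06) from 6.46, 5.70 and 5.99 to 10.91, 10.24 and 9.15. Its salt arrays spread more widely than those of AOS or GolS-1 and stayed above all controls, which the choice of the largest rises required.

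SNF4, a subunit of the SnRK1 energy-sensing kinase complex, was at background in the controls (4.91, 4.88 and 4.73) and read 8.69, 9.02 and 8.69 under salt. The rise of SNF4 was at least 13.8-fold, measured against the lowest signal that stands above the empty control spots (fitted change 3.96 ± 0.14, adjusted p = 5.47e-09). ER24, for a transcriptional coactivator of the multiprotein bridging factor type, rose from 8.71, 8.67 and 7.88 to 12.68, 12.52 and 12.02 (3.98 ± 0.23, adjusted p = 8.83e-08). LysRS, the lysyl-tRNA synthetase that charges tRNA with lysine, went from 8.40, 8.79 and 7.86 to 11.49, 11.78 and 11.10 (3.11 ± 0.22, adjusted p = 3.80e-07). For these genes the lowest salt array was above the highest control array, which the choice of the largest rises required. ODD (2.97 ± 0.16), whose product is not described here, read 9.96, 10.11 and 9.85 and then 12.96, 13.03 and 12.84 (adjusted p = 6.24e-08).

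**Figure D3:**
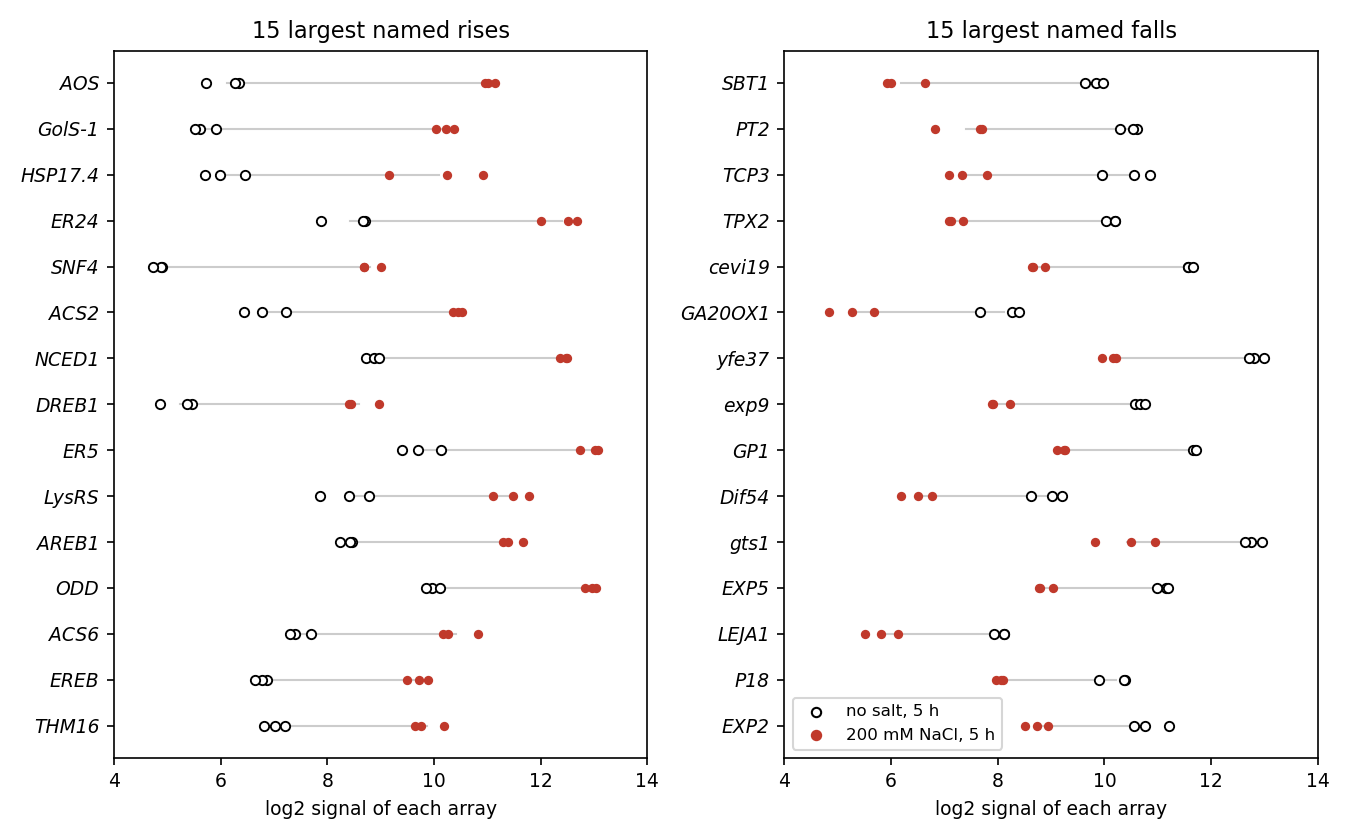
Log2 signal of each array for the 15 named genes that rose most (left) and the 15 that fell most (right), with open circles for the 3 unstressed arrays, red circles for the 3 salt arrays and a grey line between the group means. Groups do not overlap in any row, which the choice of genes required. Salt arrays of HSP17.4 spread from 9.15 to 10.91, and those of gts1 from 9.82 to 10.95.

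Of the ABA synthesis genes NCED1 changed most. NCED1, the 9-cis-epoxycarotenoid dioxygenase that makes the committed precursor of ABA, rose from 8.73, 8.88 and 8.98 to 12.50, 12.36 and 12.48 (3.58 ± 0.18, 12.0-fold, adjusted p = 3.96e-08). Of the 7 genes of the list, 2 rose, 2 fell and 3 were not called, shares near the 26% higher and 31% lower of all probe sets. The median was -0.03 (0.00 under median centring) against -0.045 for all probe sets. Zeaxanthin epoxidase ZEP, which acts upstream, fell by 0.50 ± 0.12 (10.51, 10.49 and 10.69 to 10.02, 10.31 and 9.86, adjusted p = 0.00332). Aldehyde oxidase AO1 fell by 1.26 ± 0.11 from 10.07, 9.84 and 10.06 to 8.76, 8.88 and 8.56 (adjusted p = 1.73e-06). FLACCA, the enzyme that loads the molybdenum cofactor of aldehyde oxidase, rose by 0.48 ± 0.10 (adjusted p = 0.00156), a call lost without scaling (0.17), with hybridization-control scaling (0.26) and in the authors' second log2 values (0.16). The neoxanthin synthase gene NSY (0.29 ± 0.13) and the aldehyde oxidase genes TAO2 (-0.25 ± 0.17) and TAO3 (-0.03 ± 0.13) were not called.

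Genes for proteins that accumulate under water deficit rose together. All 6 probe sets of the list were called higher, against 26% of all probe sets, with a median of 1.29. ER5, a late embryogenesis abundant (LEA)-like gene, went from 10.13, 9.71 and 9.41 to 13.07, 12.74 and 13.02 (3.19 ± 0.20, adjusted p = 1.93e-07). TAS14, a dehydrin thought to shield membranes and proteins as water is lost, was already strong in the controls at 12.11, 11.77 and 12.11 and reached 13.62, 13.57 and 13.59 (1.60 ± 0.13, adjusted p = 1.22e-06). The lipid transfer protein gene LE16 rose by 1.54 ± 0.10, LEA14 by 1.04 ± 0.07, the lipid transfer protein gene TSW12 by 0.61 ± 0.07 and CYP1 by 0.46 ± 0.09. In each of these 4 genes the 3 salt arrays were above the 3 controls. The TSW12 and CYP1 calls were lost without scaling (0.43 and 0.26), and CYP1 was named after its value was seen.

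Transcription factors of the bZIP, DREB, NAC, WRKY, MYB and HD-Zip families made up 31 probe sets, of which 19 rose and 3 fell, against 26% and 31% of all probe sets (median 0.64). DREB1, of the family that binds the drought-responsive element, rose from 4.87, 5.47 and 5.38 to 8.40, 8.97 and 8.44 (3.37 ± 0.20, adjusted p = 9.55e-08). AREB1, a bZIP factor that acts on ABA-responsive promoters, rose from 8.24, 8.47 and 8.42 to 11.39, 11.67 and 11.30 (3.08 ± 0.12, adjusted p = 6.76e-09). In both genes the salt arrays lay far above the controls. The MYB gene THM16 rose by 2.85 ± 0.18, from signals of 6.82 to 7.21 to signals of 9.65 to 10.20. The NAC gene JA2 gained 2.58 ± 0.15 (10.33, 10.32 and 9.82 to 12.71, 12.74 and 12.76) and the bZIP gene abz1 2.57 ± 0.14. The 3 that fell, named after their values were seen, were the MYB genes THM6 (-1.24 ± 0.24) and THM1 (-0.81 ± 0.19), the second at background under salt, and the HD-Zip gene h52 (-0.70 ± 0.13).

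Among ethylene synthesis genes the largest rises were those of ACC synthase genes. ACC synthases make the direct precursor of ethylene and usually set its rate, and ACC oxidases complete the synthesis. ACS2 read 6.78, 7.22 and 6.44 in the controls and 10.53, 10.46 and 10.35 under salt (3.63 ± 0.18, 12.4-fold, adjusted p = 3.95e-08). ACS6 went from 7.40, 7.30 and 7.70 to 10.82, 10.16 and 10.26 (2.95 ± 0.25, adjusted p = 1.44e-06). ACS3 followed with 2.34 ± 0.13 (5.89, 6.11 and 5.78 to 8.17, 8.37 and 8.26). In all 3 genes the groups lay further apart than the arrays within either group.

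ACS1A rose by 1.42 ± 0.10, from 9.44, 9.35 and 9.16 to 10.70, 10.79 and 10.71. ACS7 rose at least 1.32-fold from controls at background (4.09, 4.37 and 4.76 to 5.44, 5.45 and 5.36). ACS4 was at background in both groups and is given no fold. ACS5 and ACS8 overlapped between the groups and were not called. Among the ACC oxidases, ACO4 rose by 0.54 ± 0.13 (a call lost without scaling, at 0.29), ACO6 fell by 0.63 ± 0.11 and ACO5 was not called (0.33 ± 0.17). The S-adenosylmethionine synthetase genes, which supply the substrate, gave 12.92, 13.03 and 12.86 against 12.94, 13.08 and 13.13 for SAM1, not called, and a small fall of 0.21 ± 0.06 for SAM3, lost under 5 of the alternatives. Of the 15 probe sets of the 13 genes, 7 rose, 4 fell and 4 were not called, against 26% higher and 31% lower over all probe sets.

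Of 37 probe sets of ethylene perception and response 22 rose and 7 fell, against 26% and 31% of all probe sets (median 0.42). The ethylene receptor gene ETR6 rose from 7.70, 7.94 and 7.51 to 9.75, 10.08 and 9.72 (2.14 ± 0.12, adjusted p = 9.45e-08). Receptors of this kind repress the pathway until they bind the hormone. The transcription factor genes EREB and PTI5, of the ethylene response factor type, rose by 2.94 ± 0.18 and 2.77 ± 0.21. EREB went from 6.86, 6.77 and 6.65 to 9.89, 9.72 and 9.50, and PTI5 from 8.92, 9.16 and 8.40 to 11.85, 11.57 and 11.36. ERF-H1, of the same family, moved the other way and fell by 2.04 ± 0.18 (9.47, 9.61 and 9.35 to 7.53, 7.23 and 7.55). Without scaling the counts were 11 higher and 4 lower.

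Of 17 probe sets of jasmonate and other oxylipin genes 7 were higher, 7 lower and 3 not called, against 26% higher and 31% lower over all probe sets, with a median of 0.00. Lipoxygenases feed several branches, and the 7 that rose included loxD, a lipoxygenase gene of the jasmonate branch, AOS, and AOC for the allene oxide cyclase that follows it. The loxD signals were 9.20, 9.39 and 9.43 and then 12.09, 11.88 and 11.81 (2.59 ± 0.12, adjusted p = 1.96e-08). AOC rose by 0.51 ± 0.13 from 11.62, 11.78 and 12.06 to 12.34, 12.07 and 12.57, where the highest control and the lowest salt array almost met. That call was lost without scaling (0.24) and with hybridization-control scaling (0.33). OPR3, the reductase that acts next in jasmonate synthesis, was not called (-0.16 ± 0.11).

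Other branches of the oxylipin pathway moved both ways. The divinyl ether synthase gene DES rose by 2.03 ± 0.17 (9.47, 9.78 and 9.11 to 11.44, 11.61 and 11.40). LOX1.1 fell by 1.57 ± 0.12, OPR1 by 1.74 ± 0.08, opr2 by 0.53 ± 0.08, the alpha-dioxygenase gene ALPHA-DOX2 by 1.17 ± 0.16 and the hydroperoxide lyase gene HPL, which makes leaf volatiles, by 0.58 ± 0.15. In each of these 5 genes the 3 salt arrays lay below the 3 controls. In the authors' second log2 values the ALPHA-DOX2 change was smaller (-0.38). LEJA1 fell by 2.23 ± 0.15, from 7.92, 8.11 and 8.12 to 6.13, 5.81 and 5.51. Small rises were called for the lipoxygenase gene TomloxE (0.55 ± 0.12), the transcription factor gene MYC2 (0.55 ± 0.12) and the fatty acid desaturase gene Fad7 (0.23 ± 0.07). MYC2 carries out jasmonate responses. These calls were lost without scaling (0.35, 0.36 and 0.05), and that of Fad7 stood under only 8 of 16 alternatives. COI1, the jasmonate receptor, fell by 0.19 ± 0.07, a call lost under 9 of the alternatives, and loxC and LOXB were not called.

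Wound-response genes, a group that jasmonate controls, had 5 of 13 probe sets called higher, against 26% of all probe sets, and none lower. With hybridization-control scaling 2 were higher, and without scaling 2 were higher and 1 lower. The arginase gene ARG1 rose by 1.38 ± 0.12 from 8.52, 8.46 and 8.54 to 9.78, 10.09 and 9.80. The leucine aminopeptidase gene LAPA1 (0.50 ± 0.12) and the glucosyltransferase gene twi1 (0.44 ± 0.10) rose less, and both calls were lost without scaling (0.25 and 0.21) and with hybridization-control scaling (0.34 and 0.29). The threonine deaminase gene TD2 rose by 0.96 ± 0.31 (adjusted p = 0.0199), but its groups overlapped, since control array 3 read 12.02 and salt array 2 read 11.73. The TD2 call was lost without control array 1 (0.67), control array 2 (0.79) or salt array 3 (0.80), and stood under 10 of 16 alternatives. The called probe set of LOC606710 lay at background in both groups.

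Pathogenesis-related proteins gave 6 higher and 3 lower of 15 probe sets, against 26% and 31% of all probe sets. The chitinase genes CHI17 (11.44, 10.94 and 10.71 to 13.16, 12.99 and 13.19, a rise of 2.09 ± 0.17) and CHI14 (1.19 ± 0.14) and PR-P2 (1.46 ± 0.28) rose. In the authors' second log2 values the CHI14 change was smaller (0.296). LOC543878 fell by 0.86 ± 0.11 and the subtilase gene P69A by 0.84 ± 0.19, each with separate groups. The glucanase gene GluB, named after its value was seen, fell by 0.24 ± 0.09, and 8 of the alternatives left it without a call.

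Several genes for small heat shock proteins, which hold unfolding proteins in solution, rose. MTSHP, the mitochondrial member, went from 7.50, 7.20 and 7.06 to 10.30, 9.71 and 9.41 (2.56 ± 0.21, adjusted p = 1.08e-06). The small heat shock gene vis1 rose by 1.26 ± 0.25, ER-SHSP of the endoplasmic reticulum by 0.76 ± 0.23 and HSP17-6 by 0.63 ± 0.15. Salt arrays of HSP17.4, MTSHP and ER-SHSP fell in the same order, with array 1 highest and array 3 lowest. The ER-SHSP and HSP17-6 calls were lost without scaling (0.56 and 0.43), and that of ER-SHSP also without control array 2 (0.60) or salt array 1 (0.54). The larger chaperones Hsp90-1 (-0.33 ± 0.09) and CPN21 (-0.53 ± 0.09), named after their values were seen, fell. HSP21 (0.284) and HSC80 (0.095), named in the same way, were not called. In all 5 of the 9 probe sets rose and 2 fell, against 26% and 31% of all probe sets.

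Ion transport genes moved modestly. NHX1, a vacuolar antiporter that exchanges sodium or potassium for protons, rose from 6.23, 6.32 and 6.41 to 8.09, 8.17 and 7.70 (1.67 ± 0.13, 3.18-fold, adjusted p = 8.04e-07). The second antiporter gene, NHX2, rose by 0.39 ± 0.15 (adjusted p = 0.0419), with controls at 9.21, 9.45 and 8.97 and salt arrays at 9.56, 9.74 and 9.51. That call was lost under 9 of the alternatives. LKT1, a potassium channel of the inward-rectifying type, rose by 0.84 ± 0.13 (7.57, 7.31 and 7.55 to 8.59, 8.17 and 8.18), and LCA1, a calcium-pumping ATPase, by 0.40 ± 0.10. The LKT1 call was lost without scaling (0.50) and the LCA1 call also with hybridization-control scaling (0.21 and 0.29).

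The plasma membrane H+-ATPase gene LHA2 fell by 0.51 ± 0.07 (12.51, 12.43 and 12.44 to 11.99, 11.89 and 11.96). LHA1, a second pump gene, was not called (0.09 ± 0.09, with overlapping groups), and neither was SOS2, the kinase that activates the plasma membrane sodium exporter (7.13, 7.05 and 7.25 against 7.18, 7.33 and 7.24). In all, 4 of the 7 genes rose, 1 fell and 2 were not called, against 26% higher and 31% lower over all probe sets. Both aquaporin genes, which encode water channels, fell, against 31% of all probe sets. Aqp2 went from 10.97, 10.85 and 10.74 to 9.24, 9.65 and 9.46 (-1.40 ± 0.10, adjusted p = 5.07e-07). TIP fell by 0.41 ± 0.14, a call lost without control array 1 (-0.34), control array 2 (-0.40) or salt array 1 (-0.31).

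Polyamine and proline genes were called higher or not called. Of 12 probe sets of the 8 genes 6 rose and none fell, against 26% and 31% of all probe sets. The 4 that rose at least 2-fold were all probe sets of adc1. The arginine decarboxylase genes of polyamine synthesis rose, adc1 from 9.17, 9.47 and 9.48 to 10.88, 10.84 and 10.79 (1.46 ± 0.16, adjusted p = 1.05e-05) and ADC by 0.50 ± 0.08, the latter a call lost without scaling (0.24). The ornithine decarboxylase gene ODC, of the other route to putrescine, was not called (0.23 ± 0.13). The genes of proline synthesis, PRO1 (-0.17 ± 0.15) and PRO2 (0.09 ± 0.08), were not called either. Of the proline transporters, ProT1 rose by 0.82 ± 0.08 (9.81, 9.80 and 9.67 to 10.52, 10.63 and 10.59), while ProT2 (0.03 ± 0.15) and ProT3 (0.19 ± 0.15) were not called.

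Beside GolS-1, the galactinol and inositol genes were called lower or not at all. Of the 6 probe sets of the list 1 rose, 3 fell and 2 were not called, against 26% higher and 31% lower over all probe sets. AGAL, an alpha-galactosidase that breaks down raffinose-family sugars, fell from 10.46, 10.50 and 10.34 to 9.40, 9.51 and 9.61 (-0.93 ± 0.08). The inositol monophosphatase genes IMP3 (-0.85 ± 0.09) and IMP1 (-0.80 ± 0.14), whose enzymes release the inositol used to make galactinol, fell as well. All 3 had groups that did not overlap. Among genes of nitrogen metabolism, the GABA transaminase gene GABA-TP1 rose by 1.87 ± 0.14 (10.71, 10.92 and 10.27 to 12.51, 12.48 and 12.51) and its relative GABA-TP2 fell by 1.28 ± 0.13 (12.14, 12.04 and 12.47 to 10.91, 11.01 and 10.90). The glutamate dehydrogenase gene gdh1 rose by 0.81 ± 0.07, a call lost without scaling (0.57).

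Sugar and starch genes counted 11 higher and 6 lower of 27 probe sets, against 26% and 31% of all probe sets. The beta-amylase gene BMY3, of starch breakdown, rose from 9.03, 8.87 and 9.14 to 11.11, 11.27 and 11.07 (2.14 ± 0.13, adjusted p = 1.30e-07), and AgpL1, a subunit of the enzyme that commits glucose to starch, fell from 10.43, 10.41 and 10.82 to 9.24, 9.21 and 9.02 (-1.40 ± 0.11). The hexose transporter genes HT2 (1.41 ± 0.13) and HT1 (1.28 ± 0.10) rose and the invertase gene LIN8 was 2.15-fold lower. With hybridization-control scaling the sugar list stood at 8 higher and 9 lower, and its median of 0.19 turned to -0.02 without scaling.

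Of the 28 probe sets for kinases, phosphatases and phospholipases 17 rose, against 26% of all probe sets. Without scaling 9 of the list were called higher. The diacylglycerol kinase gene DGK1 rose from 7.79, 7.36 and 6.97 to 9.79, 9.79 and 9.76 (2.41 ± 0.20). MPK3, a stress-activated MAP kinase, rose by 1.86 ± 0.14, read by a probe set open to related transcripts. PPCK1, the kinase of phosphoenolpyruvate carboxylase, rose by 1.43 ± 0.17 and the phospholipase D gene PLDb2 by 1.30 ± 0.08. The 2 that fell, PLDa3 (-0.30 ± 0.09) and PP5 (-0.25 ± 0.08), were named after their values were seen and lost their calls under median centring (-0.22 and -0.17).

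Of 28 probe sets of antioxidant enzymes 8 were higher and 10 lower, shares near the 26% and 31% of all probe sets. The alternative oxidase gene AOX1a, whose enzyme lets mitochondria pass electrons without making ATP, rose from 10.47, 10.55 and 10.39 to 12.78, 12.72 and 12.57 (2.22 ± 0.07, adjusted p = 4.36e-09). The glutathione transferase gene GST-T4 rose by 1.07 ± 0.15 and LOC543607 by 1.18 ± 0.14, and the thioredoxin gene CITRX fell by 1.26 ± 0.11. FESOD, for iron superoxide dismutase, gave opposite calls on its 2 probe sets: 1 rose from 7.02, 6.55 and 6.88 to 10.03, 10.09 and 9.74 (3.14 ± 0.19), and the stronger fell from 12.60, 12.43 and 12.60 to 12.00, 11.99 and 11.86 (-0.59 ± 0.09). It was the only such gene among 83 with several probe sets. Metallothionein genes, whose proteins bind metals, fell or were not called. MT3 fell by 1.40 ± 0.14 and MTA by 0.39 ± 0.12, the latter a call lost without control array 1 (-0.34) or salt array 1 (-0.27). MT4 fell by 0.66 ± 0.16 on the steepest of its probe sets. Its others gave -0.305, which was called, and -0.144 and 0.084, which were not.

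**Figure D4:**
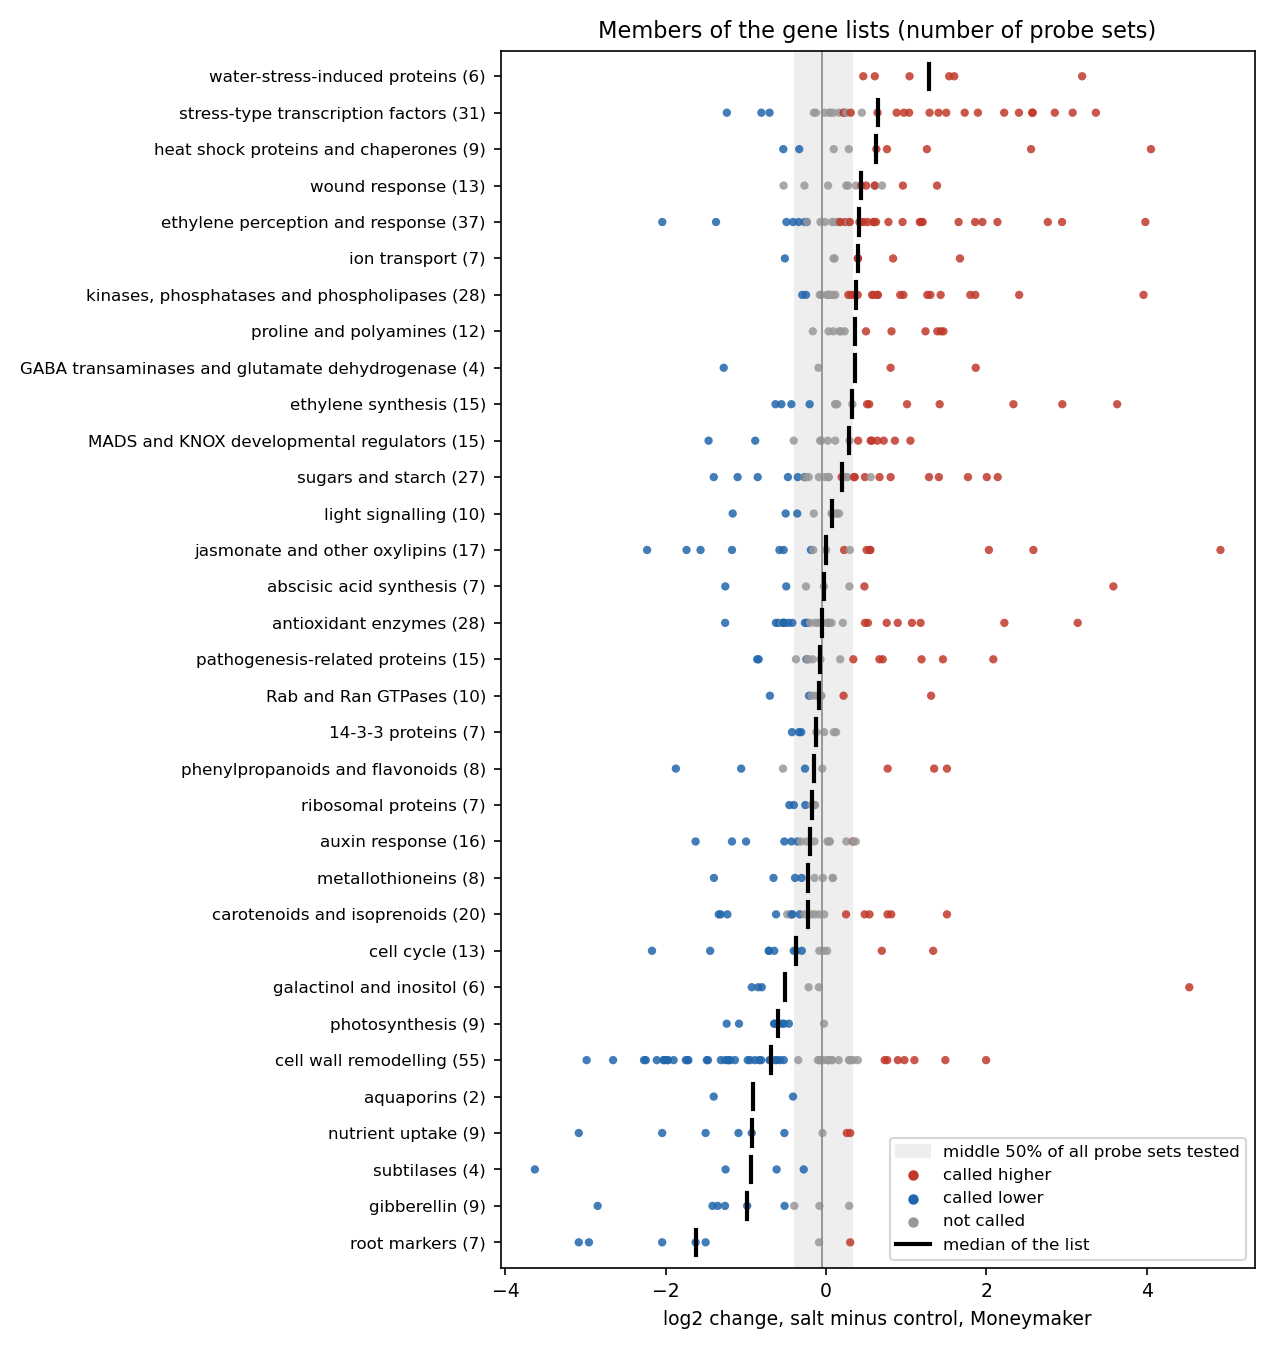
Log2 change of every probe set of the 33 gene lists, ordered by the median of the list (black bar), with red for called higher, blue for called lower and grey for not called. The grey band is the middle 50% of all 10101 probe sets (-0.39 to 0.32). Water-stress-induced proteins sit highest (median 1.29) and root markers lowest (-1.63). Medians of lists near 0 change sign with the scaling, as for jasmonate (0.00 here, 0.17 under median centring, -0.09 without scaling) and light signalling (0.07 here, -0.14 with hybridization-control scaling).

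Cell wall remodelling genes were the largest of the lists and fell in 32 of 55 probe sets. Expansins loosen walls, xyloglucan endotransglucosylases (XTH and XET) cut and rejoin their hemicellulose tethers, and endoglucanases trim their glucans. Over all probe sets 31% fell. Of the list 7 rose, and its median was -0.69. At least 2-fold falls numbered 21 and rises 3. The xyloglucan endotransglucosylase gene LOC543916 fell from 10.08, 10.22 and 10.21 to 7.25, 7.15 and 7.15 (-2.99 ± 0.18, adjusted p = 1.16e-07), and XTH16, on the steepest of its 3 probe sets, from 11.88, 11.88 and 12.08 to 9.66, 9.66 and 9.71 (-2.27 ± 0.12). XET2 fell by 2.02 ± 0.25.

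Of the 15 largest falls taken by the naming rule 3 were those of expansin genes. Signals of exp9 were 10.58, 10.67 and 10.76 and then 7.91, 7.90 and 8.24 (-2.66 ± 0.12, adjusted p = 1.46e-08). EXP5 went from 11.16, 11.19 and 10.99 to 8.77, 8.79 and 9.03 (-2.25 ± 0.11), EXP2 from 11.22, 10.76 and 10.55 to 8.51, 8.94 and 8.74 (-2.11 ± 0.19) and EXP1 from 10.37, 10.62 and 10.41 to 8.41, 8.16 and 8.75 (-2.03 ± 0.14). In all 4 genes every salt array was lower than every control, as in 34.8% of all probe sets. For exp9, EXP5 and EXP2 the naming rule required this. Those with at least 2-fold rises, named after their values were seen, were the beta-galactosidase gene TBG4 (8.79, 8.75 and 8.08 to 10.46, 10.84 and 10.30, 2.00 ± 0.19), Xegip, an inhibitor of xyloglucan-cutting enzymes (1.49 ± 0.07), and the expansin gene EXPA10 (2.15-fold).

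Of 9 gibberellin probe sets 6 fell, against 31% of all probe sets, and none rose (median -0.98). GA20OX1, for the 20-oxidase that makes the precursors of active gibberellins, fell from 8.26, 7.67 and 8.40 to 5.27, 5.68 and 4.84 (-2.85 ± 0.22, adjusted p = 9.09e-07). The 3-oxidase genes of the last step, 3OH-2 and GA3ox1, fell by 1.42 ± 0.29 and 1.26 ± 0.23. In the authors' second log2 values the 3OH-2 change was smaller (-0.41). GAI, for the DELLA repressor of gibberellin signalling, fell by 0.98 ± 0.15. TGAS118, of a gibberellin-responsive family, fell by 1.35 ± 0.33. In all these genes the groups were apart, which the naming rule required of GA20OX1.

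Among 16 auxin response probe sets 1 rose and 6 fell, a share near the 31% of all probe sets. RSI-1, an auxin-induced gene of lateral root formation, went from 11.44, 11.55 and 11.66 to 9.70, 9.75 and 10.32 (-1.63 ± 0.14), and the Aux/IAA repressor gene IAA16 fell by 1.17 ± 0.13. IAA27 fell by 0.52 ± 0.15 on a probe set open to related transcripts, with overlapping groups, and was not called on another (0.037). The auxin-binding protein gene ERABP1 (-0.43 ± 0.12) and the auxin response factor gene ARF3 (-0.36 ± 0.10) fell slightly. Another ARF3 probe set was not called (-0.315). The 1 that rose, IAA7 (0.33 ± 0.12), was named after its value was seen, had overlapping groups, lost its call under 9 of the alternatives and turned in the authors' second log2 values (-0.19).

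Of 13 cell cycle probe sets 8 fell and 2 rose, against 31% and 26% of all probe sets (median -0.37). P18, for a dUTPase that keeps uracil out of new DNA, fell from 10.38, 9.91 and 10.37 to 8.06, 8.10 and 7.97 (-2.17 ± 0.14), and PCNA, the sliding clamp of DNA replication, from 9.80, 9.51 and 9.81 to 8.32, 8.51 and 7.96 (-1.45 ± 0.14). The D-type cyclin gene CYCD3 fell by 0.71 ± 0.13. The B-type cyclin gene CycB2 fell by 0.71 ± 0.25 (adjusted p = 0.0312), a call lost under 6 alternatives and turned in the authors' second log2 values (0.32). The 2 that rose encode inhibitors of cyclin-dependent kinases: krp2 went from 9.45, 9.62 and 9.56 to 10.87, 10.80 and 10.96 (1.34 ± 0.09, adjusted p = 2.69e-07), and krp1, named after its value was seen, rose by 0.69 ± 0.08, a call lost without scaling (0.44).

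Steep single falls were also seen among other regulators and enzymes. The subtilase gene SBT1, for a secreted protease, fell from 9.85, 9.98 and 9.63 to 6.00, 5.92 and 6.64 (-3.63 ± 0.22, 12.4-fold lower, adjusted p = 1.47e-07). All 4 genes of the subtilase list fell, against 31% of all probe sets. SBT2 fell by 1.25 ± 0.11, sbt4a by 0.62 ± 0.12 and sbt3 by 0.28 ± 0.10, the last a call lost under 8 alternatives. The subtilase genes P69A (-0.84, called) and P69B (-0.376, not called) were counted with the pathogenesis-related proteins, and P69B was named after its value was seen. TCP3, of a family of leaf growth regulators, went from 10.56, 9.95 and 10.86 to 7.79, 7.09 and 7.33 (-3.05 ± 0.23). The homeobox gene KN1 of shoot meristems went from 9.59, 9.56 and 9.44 to 8.14, 8.07 and 7.97 (-1.47 ± 0.09). Its list of MADS and KNOX regulators went mostly the other way, with 7 of 15 probe sets higher and 2 lower, against 26% and 31% of all probe sets. Of those 15, 6 were at background in both groups. KN4 of that list rose by 0.86, a call lost without scaling (0.54). Of genes with no role given here, cevi19, on a probe set open to related transcripts, fell by 2.87 ± 0.10, yfe37 by 2.73 ± 0.19, GP1 by 2.49 ± 0.09, Dif54 by 2.45 ± 0.22 and gts1 by 2.35 ± 0.22.

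Nutrient uptake genes fell in 6 of 9 probe sets and rose in 2, against 31% and 26% of all probe sets (median -0.93). With hybridization-control scaling and without scaling none was called higher. PT2, a phosphate transporter of roots, read 10.61, 10.53 and 10.30 without salt and 7.70, 6.83 and 7.66 with it (-3.08 ± 0.30, 8.48-fold lower, adjusted p = 5.56e-06). PT1, the related transporter, was stronger and moved the other way, from 12.81, 12.83 and 12.77 to 13.16, 13.00 and 13.15 (0.30 ± 0.07), a call lost without scaling (0.09) and with hybridization-control scaling (0.17). The ammonium transporter gene AMT1-2 fell from 11.20, 11.10 and 11.14 to 8.99, 9.16 and 9.15 (-2.04 ± 0.10). For iron, the regulator gene FER fell by 1.09 ± 0.10, the ferric reductase gene FRO1 by 0.93 ± 0.15 and the metal transporter gene NRAMP1 by 1.50 ± 0.29, while NRAMP3 (-0.52 ± 0.07) and Nramp2 (0.26 ± 0.08), named after their values were seen together with PT1, moved less, and the Nramp2 call was lost without scaling (0.04).

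Of the 7 root markers, which share 4 genes with nutrient uptake, 5 fell (PT2, the peroxidase gene TPX2, AMT1-2, RSI-1 and NRAMP1) and PT1 rose. Over all probe sets 31% fell and 26% rose. TPX2 went from 10.02, 10.20 and 10.20 to 7.13, 7.08 and 7.34 (-2.96 ± 0.18, adjusted p = 1.51e-07). The peroxidase gene TPx1 was not called, with overlapping groups (12.53, 12.64 and 12.55 against 12.41, 12.60 and 12.44). PT1 and TPx1 were the strongest of the list, so that its summed signal under salt was 0.776 of that of the controls, and the part of root RNA in the falls of nutrient uptake and cell wall genes was not tested.

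Of 9 photosynthesis probe sets 8 fell and PSBR was not called (median -0.61). The share that fell was 31% over all probe sets and 40.2% over those of the strongest signal, where the list lies. CAB5, for a light-harvesting chlorophyll-binding protein, went from 12.15, 11.84 and 12.49 to 11.03, 11.15 and 10.58 (-1.24 ± 0.17), and PETE, for the electron carrier plastocyanin, from 12.32, 12.10 and 12.55 to 11.19, 11.39 and 11.13 (-1.09 ± 0.11). The photosystem II genes PsbQ (-0.65 ± 0.08) and PSBP (-0.60 ± 0.08) and the antenna gene CAB4 (-0.64 ± 0.07) fell less. Summed over the list the signal under salt was 0.695 of that of the controls.

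Of 20 isoprenoid probe sets 6 were higher and 7 lower, shares near the 26% and 31% of all probe sets. The beta-carotene hydroxylase gene CrtR-b1, on the route towards the precursors of ABA, rose from 8.82, 8.96 and 8.62 to 10.39, 10.30 and 10.24 (1.51 ± 0.10, adjusted p = 2.96e-07). The lycopene epsilon-cyclase gene CRTL-E-1, which sends carotenoids to lutein instead, fell from 9.13, 8.81 and 9.39 to 7.88, 8.09 and 7.66 (-1.23 ± 0.14). VDE, for the de-epoxidase that reverses the ZEP reaction, fell by 1.34 ± 0.14 on its steepest probe set and was not called on another (-0.485). FPPS1, a farnesyl diphosphate synthase, fell by 1.32 ± 0.13, and ChrC, a plastid lipid-associated protein, rose by 0.81 ± 0.10 (lost without scaling, at 0.56). With hybridization-control scaling the list stood at 3 higher and 10 lower.

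Among phenylpropanoid genes, the tyramine hydroxycinnamoyltransferase genes THT1-3 (10.68, 11.03 and 10.62 to 12.30, 12.27 and 12.29, 1.51 ± 0.13) and THT7-1 (1.35 ± 0.14) rose. The flavonoid genes DFR, for dihydroflavonol reductase, and CHS2, for chalcone synthase, fell by 1.87 ± 0.31 and 1.06 ± 0.22. DFR read 7.31, 7.08 and 8.45 and then 5.45, 5.78 and 5.98. Of the light receptors, the cryptochrome gene Cry1b fell by 1.17 ± 0.10 and the phytochrome gene PHYA by 0.50 ± 0.11. The cryptochrome genes CRY1A (-0.153 and 0.079 on its probe sets) and CRY2 (0.088) were not called. Of the 10 light signalling probe sets 3 fell, a share near the 31% of all probe sets, and none rose. The small GTPase genes Rab1A, of vesicle traffic, and SAR2 moved apart, Rab1A rising by 1.31 ± 0.07 (11.38, 11.52 and 11.29 to 12.71, 12.70 and 12.70) and SAR2 falling by 0.70 ± 0.11. Ribosomal protein and 14-3-3 genes changed little, and rpl38 (-0.46 ± 0.08) and tft8 (-0.42 ± 0.08) were the steepest. In each list 3 of 7 probe sets fell, against 31% of all probe sets. With hybridization-control scaling all 7 ribosomal probe sets were called lower.

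The salt effect of Moneymaker was set against that of PI365967 by a test of the difference itself. It was called for 1337 probe sets (13.2%), with the Moneymaker change the more positive in 716 (7.09%) and the more negative in 621 (6.15%). These counts moved with the scaling, to 753 and 413 under median centring, 398 and 455 with hybridization-control scaling, and 116 and 176 without scaling. Differences are given as the Moneymaker change minus the PI365967 change.

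Among the genes with a name, HSP17.4 and LysRS had the most positive differences. The HSP17.4 changes were 4.05 in Moneymaker and 1.11 in PI365967 (difference 2.95 ± 0.52, adjusted p = 0.00433). LysRS rose by 3.11 in Moneymaker and was not called in PI365967 (0.37), with a difference of 2.73 ± 0.31 (adjusted p = 0.000368). AOS rose in both, by 4.92 and 2.63 (difference 2.29 ± 0.27, adjusted p = 0.000468). ACS6 (2.95 against 0.72), PTI5 (2.77 against 0.71) and EREB (2.94 against 0.98) differed by 2.22 ± 0.35, 2.05 ± 0.29 and 1.96 ± 0.25. Among oxylipin genes, loxD differed by 1.19 ± 0.17 and DES by 1.14 ± 0.24. By contrast the changes of NCED1 (3.58 and 3.66, difference -0.08 ± 0.26), GolS-1 (difference 0.08 ± 0.38) and SNF4 (difference -0.23 ± 0.20) gave no called difference. The Moneymaker controls of SNF4 were at background, so the size of its difference cannot be measured.

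The most negative difference among the genes with a name was that of TPX2. This gene fell by 2.96 in Moneymaker and was not called in PI365967 (-0.47), a difference of -2.49 ± 0.26 (adjusted p = 0.000268). EXP5 fell by 2.25 against 0.77 (difference -1.47 ± 0.15, adjusted p = 0.00022) and EXP1 by 2.03 against 0.69 (-1.34 ± 0.20, adjusted p = 0.00188). For PT2 the difference of -1.52 ± 0.43 (adjusted p = 0.0401) and for XET2 that of -1.24 ± 0.35 (adjusted p = 0.0388) each lost the call under 6 of 13 alternatives, and CEVI57, which was called higher in PI365967 alone, kept its call (-1.35 ± 0.39, adjusted p = 0.0441) under 3 of 13. Among pumps and channels, LHA1 rose by 1.30 in PI365967 and was not called in Moneymaker (difference -1.21 ± 0.13, adjusted p = 0.00027), while LKT1 rose in Moneymaker and fell by 0.50 in PI365967 (difference 1.33 ± 0.19, adjusted p = 0.00122). NHX1 rose by 1.67 and 1.38 with no called difference (0.29 ± 0.18).

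**Figure D5:**
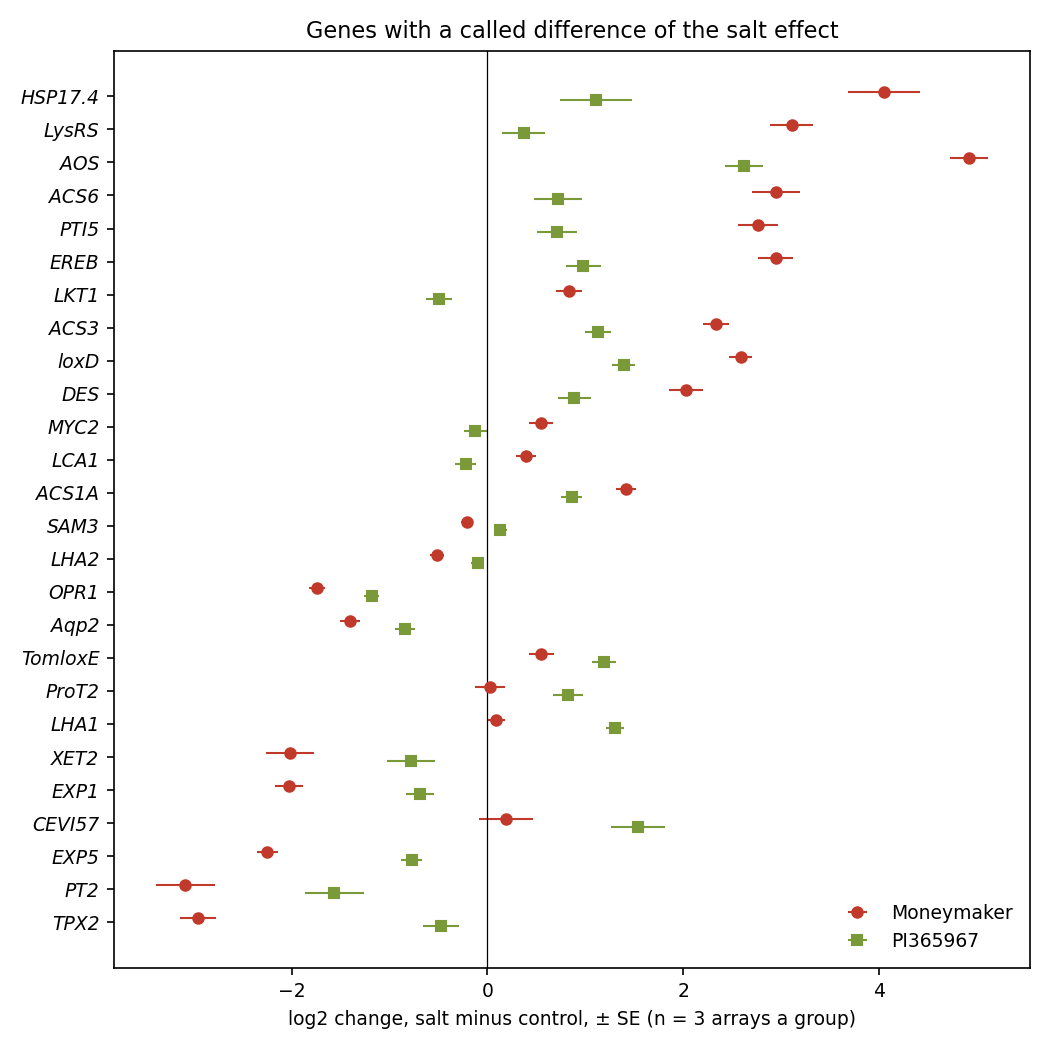
Log2 salt change with its standard error in Moneymaker (red circles) and PI365967 (green squares), 3 arrays a group. Shown are 26 named genes with a called difference between the genotypes, ordered by that difference. They are the 6 largest differences each way and those called in the ethylene synthesis, jasmonate, ion transport, proline and aquaporin lists. Other called differences are not shown, such as those of the galactinol and inositol list (4 of 6 probe sets). HSP17.4 and LysRS at the top rose more in Moneymaker, and TPX2 and PT2 at the bottom fell more there.

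The array's control transcripts were read on the unnormalized scale, relative to each array's median. The 25S ribosomal RNA probe set stood at -3.15, -2.85 and -2.79 in the Moneymaker controls and at -1.69, -0.71 and -0.79 under salt, a difference of 1.86 (0.66 in PI365967). The 17S ribosomal RNA probe set differed by 0.62 (-0.20 in PI365967). Ubiquitin was 1.31 higher under salt (1.01 in PI365967). Actin (0.03), the 3′ (-0.05) and 5′ (-0.13) ends of GAPDH and elongation factor EF1a (0.08) differed by little.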

How the data were processed

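Values of whole tomato plants were the authors' deposited intensity values, linear and 1 per probe set and array. For background correction and probe set summary, the method is not given in the sources used here. Intensities became log2(value + 16) and were quantile normalized over the 12 arrays, without the 108 control probe sets. Group means were fitted with limma (R 4.3.3, limma 3.58.1) to all 12 arrays without covariates, with two-sided tests and Benjamini-Hochberg adjustment over 10101 probe sets. The number of arrays limits the precision. A probe set was at background where no array of a group exceeded the brightest empty control. The procedure was tested on simulated data.

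The authors also deposited log2 values of part of the probe sets, and a SAM table (unpaired, 100 permutations, per the file headers) which lists a q-value in percent and the ratio of salt to control. These served as alternatives, with columns marked 5h+ taken as salt.

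Named genes were the 15 largest rises and falls with separate groups, up to 5 called members of each of 33 lists, every member of the ABA, ethylene synthesis, jasmonate, ion transport, proline and aquaporin lists, and the 6 largest differences each way. Lists rest on symbols. The members and lists were chosen with earlier results of these data known. Probe sets ending in _s_at or _x_at can take related signal.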

Additional observations from a re-analysis of the deposited data

Results flagged for a closer look

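The following results differed between the genotypes by the test of the difference itself, given as the Moneymaker salt change minus the PI365967 salt change in log2. More positive in Moneymaker were HSP17.4 (2.95), LysRS (2.73), AOS (2.29), ACS6 (2.22), PTI5 (2.05), EREB (1.96), LKT1 (1.33), ACS3 (1.21), loxD (1.19), DES (1.14), MYC2 (0.67), LCA1 (0.62) and ACS1A (0.56). More negative were TPX2 (-2.49), PT2 (-1.52), EXP5 (-1.47), CEVI57 (-1.35), EXP1 (-1.34), XET2 (-1.24), LHA1 (-1.21), ProT2 (-0.80), TomloxE (-0.64), Aqp2 (-0.57), OPR1 (-0.56), LHA2 (-0.42) and SAM3 (-0.34). Over 13 alternatives the calls of HSP17.4, LysRS, AOS, ACS6, PTI5, EREB, TPX2, EXP5, EXP1 and LHA1 stood in all, and no difference changed its sign.

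Signal also moved with salt in control probe sets that no comparison uses. In Moneymaker 25S ribosomal RNA was 1.86 higher, 17S ribosomal RNA 0.62 higher and ubiquitin 1.31 higher, relative to the array medians. Their part in the other results was not tested.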

How the results depend on the processing

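The count of called probe sets (5756) moved to 3534 without scaling and the count of called differences between the genotypes (1337) to 292, and centring on hybridization controls, chosen after seeing the data, moved the latter to 853. Leaving out 1 array at a time gave 5274 to 5550 called probe sets, 1460 to 1670 at least 2-fold changes, 929 to 1376 differences, 284 to 299 called list members and 155 to 162 of the 164 called named probe sets. Of these 164, 129 kept their call under every alternative run. In the authors' second log2 values the change of CycB2 turned to 0.32, ProT3 to -0.32, PLDa3 to 0.0416 and IAA7 to -0.19, and the cause was not tested. The authors' SAM table listed 7169 of 8074 probe sets at a q-value under 5 percent, and 23 probe sets called in both had opposite directions.

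The replicate numbers were not used as pairs in the main fit. Deviations of same-numbered arrays correlated at 0.027, 0.085 and 0.112. Control arrays 2 and 3 correlated best with the salt array of their own number, and control array 1 with salt array 2 (0.05). The remaining pairs ran from -0.118 to 0.014. Values this small do not decide whether the numbers pair the samples. With the replicate block 5730 probe sets, 1540 at least 2-fold changes, 1199 differences, 304 list members and 162 named probe sets were called. Changes below the median standard error of 0.114, and the 688 probe sets at background in both groups, lie beyond what 3 arrays a group can resolve.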
